A study of Mus musculus with 8 samples.

Results

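The insulin-like growth factor (IGF) binding proteins comprise 7 genes, *Igfbp1* to *Igfbp7*, of the 24091 genes in a table of read counts from mouse islets, the endocrine cell clusters of the pancreas. They were taken by gene symbol. RNA-sequencing (RNA-seq) had been performed on islets of 6-week-old mice on a C57BL/6 background, with 4 control and 4 *Itgb1* mutant libraries, to ask how the loss of *Itgb1*, which encodes integrin β1, affects genes of islet function. The controls carried the genotype label wild-type, which names no Cre or floxed allele. The mutants were labelled Ngn3-Cre, itgb1-/-. In them Cre was driven by *Ngn3*, a gene of endocrine progenitors. Endothelial cells, pericytes and other cells outside the endocrine lineage were therefore not the target of the deletion. Which cells gave the *Itgb1* reads that remain in the mutants was not tested. Each library was made from a pool of isolated islets. The libraries are described as biological replicates, but the labels do not tie each to a separate animal. The p-values here set genotype differences against the spread between these libraries, which may not be the spread between animals.

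IGF binding proteins are secreted proteins that hold the ligands Igf1 and Igf2 away from their receptor, carry them in blood and tissue fluid, and release them when proteases such as Pappa2 cut the binding protein. *Igfbp3* and *Igfbp5* encode the members that form a ternary complex with the acid-labile subunit Igfals, while the product of *Igfbp7* binds IGFs weakly and is a component of the vascular basement membrane. In the pancreas these proteins come from endothelial and mesenchymal cells as well as from endocrine cells, and some members are known targets of the hypoxia response.

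Per library, 35110802 to 67614688 counts were assigned to genes (35.1 to 67.6 M). Depth was 62.2 to 67.6 M for controls 2 and 3 and mutant 3, against 35.1 to 41 M for the remaining 5, and these 2 classes of depth (over and under 50 M) are kept apart below wherever a member's values follow them. *Itgb1* was at 315 to 432 CPM (counts scaled to library size by the TMM method) in the controls and at 193 to 266 CPM in the mutants, with no overlap. Markers of islet endocrine cells were abundant in every library, with a summed level of 176838 CPM in control 2, 286574 CPM in control 3 and 48927 to 74896 CPM in the other 6 libraries. In RNA from whole islets, fewer cells of a type and less RNA per cell cannot be told apart.

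The members lie on 4 chromosomes of GRCm38, and 4 of them form 2 close pairs of neighbours. *Igfbp2* (chr1:72824480-72852471, plus strand) and *Igfbp5* (chr1:72858065-72874865, minus strand) are 5593 bp apart with their 3′ ends facing each other. *Igfbp1* (chr11:7197787-7202546, plus strand) and *Igfbp3* (chr11:7206091-7213923, minus strand) are 3544 bp apart in the same arrangement. *Igfbp4* (chr11:99041260-99052643, plus strand), *Igfbp6* (chr15:102144186-102149512, plus strand) and *Igfbp7* (chr5:77349240-77408045, minus strand) have no member beside them. *Igfbp7* shares 85 exonic bp with *Polr2b* on the opposite strand and spans the antisense gene *Gm34648*, with which it shares no exonic base. The counting used default settings, without strand, so reads from the shared stretch cannot be assigned to one gene or the other.

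The promoters of *Igfbp3*, *Igfbp5* and *Igfbp7* are shown because these 3 genes held nearly all of the family's mRNA and differed from each other in their pattern across the libraries. Each runs from 250 bp before to 50 bp after the start site (RefSeq, GRCm38.p6, all on the minus strand, 5′ to 3′). Capitals mark ACGTG or GCGTG, the core of the hypoxia response element that HIF factors bind, and TATAAA or TATATA, forms of the TATA box, each searched on both strands. The first is chr11:7213874-7214173, the second chr1:72874816-72875115 and the third chr5:77407996-77408295.
Igfbp3: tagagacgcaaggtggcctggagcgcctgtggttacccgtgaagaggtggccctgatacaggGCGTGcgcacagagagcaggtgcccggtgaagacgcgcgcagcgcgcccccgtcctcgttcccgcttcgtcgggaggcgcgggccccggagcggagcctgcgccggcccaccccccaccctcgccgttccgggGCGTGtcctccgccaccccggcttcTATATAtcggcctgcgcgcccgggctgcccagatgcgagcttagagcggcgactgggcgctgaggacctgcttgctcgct
Igfbp5: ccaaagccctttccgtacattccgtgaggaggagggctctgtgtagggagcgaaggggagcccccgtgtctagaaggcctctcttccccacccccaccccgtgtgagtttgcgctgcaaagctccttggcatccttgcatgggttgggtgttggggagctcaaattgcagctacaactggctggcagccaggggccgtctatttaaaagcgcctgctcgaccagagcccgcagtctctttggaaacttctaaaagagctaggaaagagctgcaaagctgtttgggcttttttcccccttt
Igfbp7: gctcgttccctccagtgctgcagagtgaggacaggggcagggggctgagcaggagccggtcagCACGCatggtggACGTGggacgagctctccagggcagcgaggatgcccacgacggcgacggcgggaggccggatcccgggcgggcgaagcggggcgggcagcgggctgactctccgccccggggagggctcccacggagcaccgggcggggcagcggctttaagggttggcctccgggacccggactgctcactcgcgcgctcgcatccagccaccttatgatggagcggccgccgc
The *Igfbp3* promoter held 2 copies of GCGTG, with first bases at -188 and -55 from the start site, and TATATA at -30, which reads the same on both strands. The *Igfbp5* promoter held neither motif. The *Igfbp7* promoter held GCGTG on the opposite strand at -187 and ACGTG at -175, and no TATA box. Of 32851 mouse promoters of this length, 43.8% held the hypoxia element core and 17.1% a TATA box by these letters, so a match is a description and not a site in use. All 7 members had a promoter entry, and among the other 4 the core was found for *Igfbp1* and *Igfbp2*. The TATA box letters were found for *Igfbp4*, at -28, and for *Igfbp6*, at -148 on the opposite strand.

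Most of the family's mRNA came from 3 genes. Per kilobase of gene length (RPKM, CPM divided by length), *Igfbp7* was the highest member on average in both groups, with 135 RPKM (range 95.1 to 207) in the controls and 123 RPKM (99 to 177) in the mutants. *Igfbp3* followed with 66.1 RPKM (40.5 to 99.7) and 120 RPKM (52.2 to 161), and *Igfbp5* with 43.5 RPKM (7.54 to 82.9) and 102 RPKM (93.9 to 113). The ranges of these neighbours overlapped within each genotype, so their order was not separated by the spread between libraries. *Igfbp7* was the highest member in controls 1, 2 and 3 and in mutant 3, and *Igfbp3* in control 4 and in mutants 1, 2 and 4. The ranges of the lower members did not overlap with those of the top 3, except *Igfbp4* with *Igfbp5* in the controls, and among the lower members *Igfbp6* and *Igfbp2* overlapped in the mutants. *Igfbp4* stood at 8.71 RPKM (5.69 to 11.9) in the controls and 12.4 RPKM (7.84 to 18.7) in the mutants, *Igfbp6* at 1.18 RPKM (0.68 to 2.36) and 1.87 RPKM (0.368 to 3.29), and *Igfbp2* at 0.162 RPKM (0.0404 to 0.368) and 0.569 RPKM (0.0419 to 1.15). *Igfbp1* was close to absent.

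*Igfbp3*, *Igfbp5* and *Igfbp7* together made up 93.9% to 97.5% of the summed RPKM of the family in every library. The summed level was 258, 204, 266 and 291 RPKM in controls 1 through 4 and 358, 365, 335 and 382 RPKM in mutants 1 through 4. Every mutant library was above every control library in this sum, but among the single members only *Igfbp5* showed this. Of all single genes tested, 4.4% did, and how often sums of other genes do was not examined. The split among the 3 genes differed more than the sum. *Igfbp5* held 29.4% and 28.5% of the sum in controls 1 and 4, but 3.85% and 2.83% in controls 2 and 3, and 24.6% to 30.8% in the mutants. *Igfbp7* held 64.4% and 77.9% in controls 2 and 3, and at most 52.9% in any other library.

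**Figure D1:**
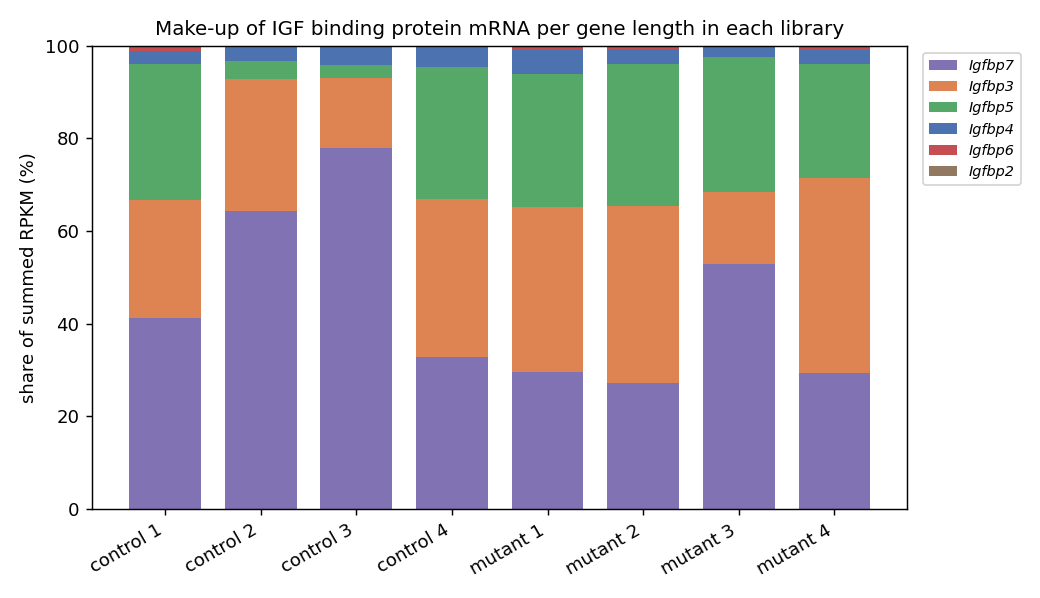
Share of the summed RPKM of the IGF binding proteins (y axis, percent) held by each member in each of the 8 libraries (x axis), stacked to 100%. *Igfbp5* held 3.85% and 2.83% in controls 2 and 3 and 24.6% to 30.8% in the 4 mutants.

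Between genotypes, 5 of the 6 tested members had a higher mean and 1 a lower mean in the mutants, and none was called. Across all genes, 50.2% had a higher mean in the mutants. The median log2 fold change was 0.77 over the 6 members and 0.00 over all 15233 genes tested. For the members it was 0.57 in the 5 libraries under 50 M and 0.45 with the depth class as a term. In the 3 libraries over 50 M, where *Igfbp2* was below the filter and left out, it was 0.09. To be called, a gene needed a fold change above 2 and an adjusted p under 0.05 (edgeR's quasi-likelihood test with Benjamini-Hochberg adjustment over all tested genes), and 0 of 15233 genes (0%) met this in the 8 libraries. DESeq2 called 187 genes (1.23%) and none of the members. At an unadjusted p below 0.05, 1 of the 6 members, *Igfbp3*, was higher (all genes: 1036, or 6.8%) and none was lower (1096, or 7.19%). With no overlap between the groups, 1 member, *Igfbp5*, stood above every control in every mutant (all genes: 670, or 4.4%).

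**Figure D2:**
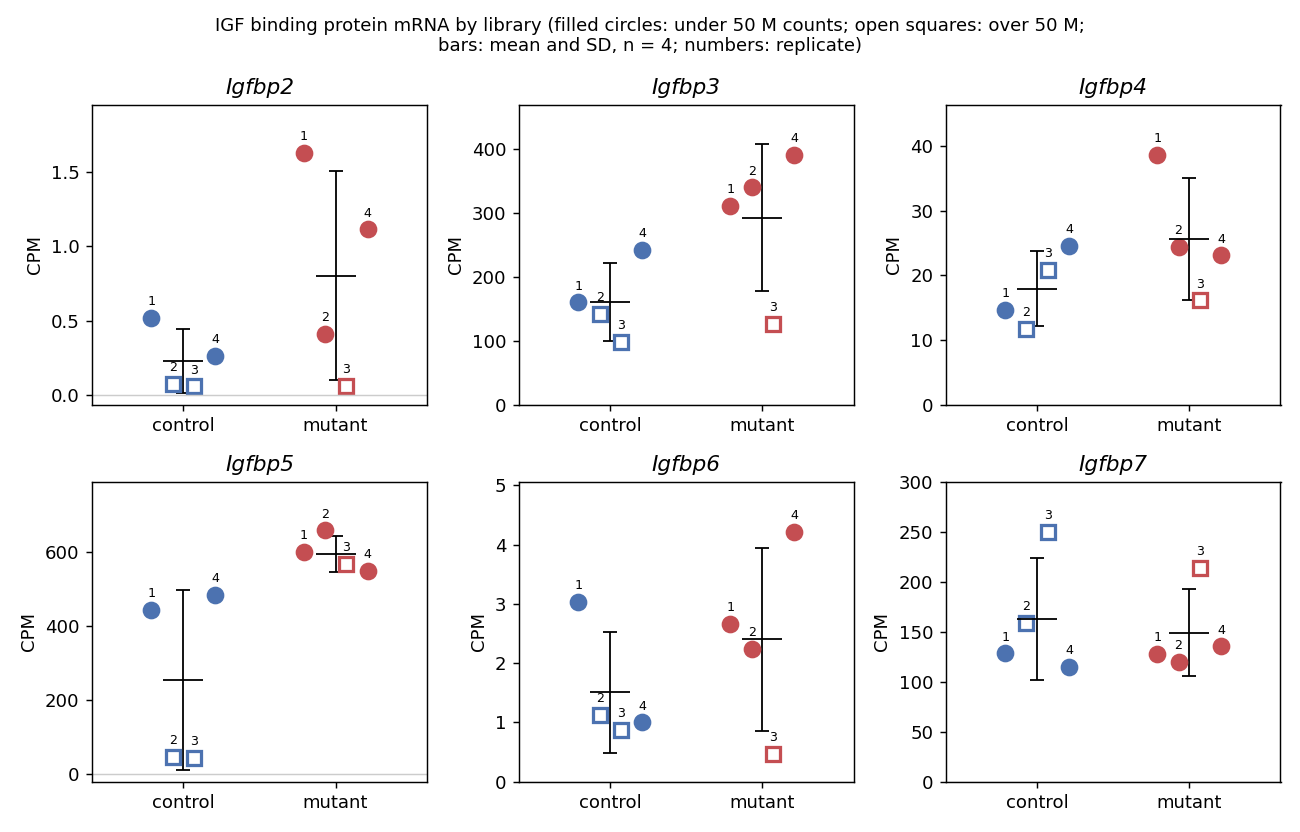
Level of the 6 tested IGF binding proteins (y axis, CPM, each panel on its own scale) in 4 control and 4 mutant libraries, with the mean and SD of each group. Filled circles are libraries under 50 M counts, open squares libraries over 50 M, and numbers are replicates. Every *Igfbp5* value of the mutants (549.5 to 659 CPM) is above every control, and the open squares of the controls are far below the filled circles.

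*Igfbp5*, which encodes a binding protein that also attaches to extracellular matrix, was the only member whose groups did not overlap. Its level was 443, 46, 44.1 and 485 CPM in controls 1 through 4 and 601, 659, 568 and 549.5 CPM in mutants 1 through 4. The 4 mutants lay close together, at 594 CPM ± 48.1 (SD, n = 4), while the controls formed a high and a low pair, at 255 CPM ± 243. The coefficient of variation was 95.3% in the controls and 8.09% in the mutants. The log2 fold change came to 1.22 (SE 0.75), with an unadjusted p of 0.137 and an adjusted p of 0.456 in edgeR.

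The low pair of *Igfbp5* values were controls 2 and 3, both of over 50 M counts, and the mutant of that depth did not share it. Mean *Igfbp5* was 45 CPM in these controls and 464 CPM in controls 1 and 4, a 10.3-fold difference between libraries of the same genotype label. Of all tested genes, 194 (1.27%) had a mean in controls 2 and 3 at or below 0.25 times that in controls 1 and 4 (0.5 CPM added). Within the 5 libraries under 50 M, the mutants were 1.3-fold higher in mean CPM, with a log2 fold change of 0.37 (SE 0.10, unadjusted p = 0.00886, adjusted p = 0.118 in edgeR). Within the 3 libraries over 50 M, the single mutant was 12.6-fold higher, a log2 fold change of 3.68 that has 1 mutant library behind it. Library depth and anything else that set controls 2 and 3 apart from controls 1 and 4 cannot be told apart.

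*Igfbp3*, the main IGF carrier of blood and a gene of endothelial cells in many tissues, was the only member with an unadjusted p below 0.05. It stood at 160.4, 142, 98.7 and 243 CPM in controls 1 through 4 and at 311, 341, 127 and 392 CPM in mutants 1 through 4. Mutants 1, 2 and 4 were above all controls, and mutant 3 lay within the range of the controls. The mean was 161 CPM ± 60.4 in the controls and 293 CPM ± 115 in the mutants (SD, n = 4), with a log2 fold change of 0.86 (SE 0.37, unadjusted p = 0.044, adjusted p = 0.349 in edgeR). Within the 5 libraries under 50 M the groups did not overlap and the log2 fold change was 0.78 (SE 0.19, unadjusted p = 0.00729, adjusted p = 0.112 in edgeR), where 21.7% of all genes had every mutant above every control. Within the 3 deeper libraries it was 0.10 (SE 0.30). Leaving out any library other than control 4 or mutant 3 moved the unadjusted p above 0.05, to at most 0.114, with a log2 fold change of at least 0.69.

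*Igfbp7*, the most abundant member per length in the controls, had overlapping levels in both genotypes. It stood at 128, 159, 250.03 and 115 CPM in controls 1 through 4 and at 127.5, 119.5, 214 and 135 CPM in mutants 1 through 4. The highest values were those of control 3 and mutant 3, both of over 50 M counts, and all 4 mutants lay within the range of the controls. The log2 fold change was -0.13 (SE 0.28, adjusted p = 0.845 in edgeR), and it was 0.06 (SE 0.08) within the libraries under 50 M. The sign therefore depended on the libraries used, and no difference larger than the spread between libraries was detected.

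*Igfbp4*, whose product is cut by Pappa in the presence of IGF, was at 14.7, 11.7, 20.9 and 24.6 CPM in controls 1 through 4 and at 38.6, 24.4, 16.2 and 23.1 CPM in mutants 1 through 4. Only mutant 1 was above all controls. The log2 fold change was 0.51 (SE 0.31, adjusted p = 0.453 in edgeR), and 0.54 (SE 0.31) within the libraries under 50 M. It was 0.24 without mutant 1. *Igfbp6*, which encodes a binding protein with preference for Igf2, was at 3.04, 1.13, 0.874 and 1 CPM in controls 1 through 4 and at 2.67, 2.24, 0.473 and 4.22 CPM in mutants 1 through 4. The groups overlapped widely, with the lowest value of all in mutant 3. Its log2 fold change came to 0.67 (SE 0.64, adjusted p = 0.621 in edgeR), and -1.06 (SE 0.68) within the 3 deeper libraries.

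The 2 scarcest members were *Igfbp2*, which encodes an abundant binding protein of fetal tissues, and *Igfbp1*. *Igfbp2* had 20, 4, 3 and 11 reads in controls 1 through 4 and 72, 17, 4 and 47 reads in mutants 1 through 4. In CPM this was 0.519, 0.0742, 0.057 and 0.262 in the controls and 1.63, 0.409, 0.0591 and 1.11 in the mutants. Mutants 1 and 4 were above all controls, and the 3 libraries over 50 M held the lowest values, at 3 or 4 reads each. The log2 fold change of 1.86 was the largest of the 6 tested members, with an SE of 0.96 and an adjusted p of 0.396 in edgeR, and it ranged from 1.23 without mutant 1 to 2.63 without control 1. *Igfbp1*, a hypoxia- and fasting-responsive gene of liver, had 5 reads in all, 3 in mutant 1 and 1 each in control 2 and mutant 2. It was below the low count filter and not tested. A count of 0 allows up to 0.0443 to 0.0778 CPM, depending on the library (3 reads, counting error only).

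**Figure D3:**
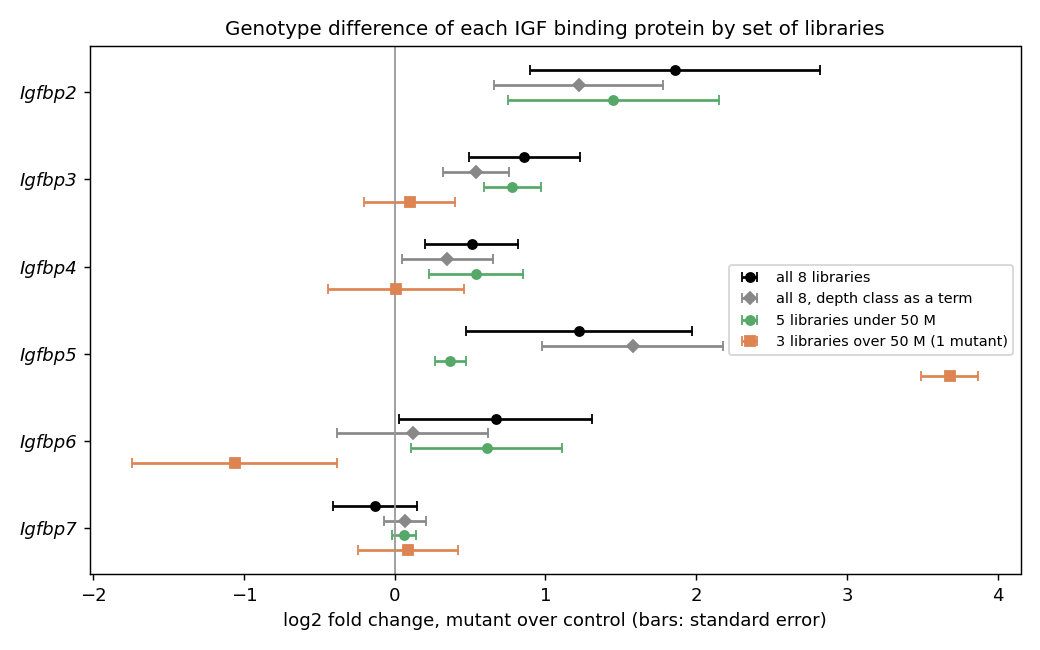
Log2 fold change of each tested member, mutant over control (x axis, bars are standard errors), over all 8 libraries, with the depth class as a term, within the 5 libraries under 50 M and within the 3 over 50 M, where 1 mutant stands against 2 controls and *Igfbp2* was below the filter. *Igfbp5* is at 0.37 in the 5 libraries and at 3.68 in the 3, while *Igfbp7* stays near 0 in each.

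With the depth class as a term in the fit, *Igfbp5* (log2 fold change 1.58, SE 0.60, adjusted p = 0.291 in edgeR) and *Igfbp3* (0.54, SE 0.22, adjusted p = 0.307) had an unadjusted p below 0.05, against 1317 genes (8.65%) that were higher at that level. *Igfbp2* was at 1.22, *Igfbp4* at 0.35, *Igfbp6* at 0.12 and *Igfbp7* at 0.07. In the 5 libraries under 50 M the same 2 members did, against 1960 genes (12.6%). No member was called in these fits, which called 3 genes (0.0197%) with the depth term and 10 genes (0.0641%) within the 5 libraries.

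Other genes moved with the same libraries. The 12 hypoxia response genes listed, among them *Car9*, *Adm* and *Bnip3*, summed to 1546, 1512, 1294 and 2288 CPM in controls 1 through 4 and to 2781, 3518, 1582 and 3822 CPM in mutants 1 through 4. As for *Igfbp3*, mutants 1, 2 and 4 were above all controls in this sum and mutant 3 was not. In the controls the highest of the 12 was *Vegfa*, at 608 to 828 CPM, with a log2 fold change of 0.14 (adjusted p = 0.638 in edgeR). *Car9*, *Adm* and *Bnip3* reached at most 2.57, 5.86 and 74.8 CPM there. All 12 had a higher mean in the mutants and 11 an unadjusted p below 0.05, and the median log2 fold change was 1.67 over the 8 libraries, 1.49 in the 5 and 0.25 in the 3. The 12 markers of fibroblasts, stellate cells and pericytes summed to 343 to 507 CPM in the controls and 783 to 919 CPM in the mutants, with 9 of 12 at an unadjusted p below 0.05 and higher. In controls 2 and 3, where *Igfbp5* was low, the sum was 366 and 507 CPM, but its genes did not run together. There 4 of the 12 were below both other controls and 2 above them. *Pdgfrb*, a receptor of pericytes, was at 13.5 and 20.4 CPM in controls 2 and 3 against 52.8 and 47.8 CPM in controls 1 and 4, while *Rgs5*, another pericyte gene, was at 213 and 254 CPM against 102 and 97.5 CPM. Endothelial markers summed to 772 to 819 CPM in the controls and 714 to 892 CPM in the mutants, so their ranges overlapped. Their genes did not run together either, as 5 of the 10 had a higher and 5 a lower mean in the mutants. *Esam* (log2 fold change 0.54) and *Kdr* (-0.58) had an unadjusted p below 0.05 in edgeR. Controls 2 and 3 had the highest sums of acinar markers, 3734 and 11423 CPM against 61.3 to 821 CPM in the other libraries, and the lowest of ductal markers, 526 and 309 CPM. The ductal sum was 1637 and 1008 CPM in controls 1 and 4 and 1083 to 3004 CPM in the mutants, with 6 of 7 markers at a higher mean in the mutants, 3 of them at an unadjusted p below 0.05, and a median log2 fold change of 1.02. Leukocyte markers summed to 24 to 33.7 CPM in the controls and 31.8 to 60.5 CPM in the mutants, and Schwann cell markers to 31.2 to 50.6 CPM and 48.1 to 75.8 CPM. Adipocyte markers summed to 8.47 to 16 CPM in the controls and 18 to 23.7 CPM in the mutants, with no overlap. Nearly all of that was *Fabp4*, a gene that capillary endothelium also expresses, the 1 of 6 above the filter, at 8.38 to 15.6 CPM and 17.8 to 23.5 CPM, while *Adipoq* was at 0.0949 CPM or less. Mesothelial markers summed to 29.6 to 78.8 CPM in the controls and 14.4 to 57.2 CPM in the mutants. Of these, 2 of 6 were above the filter, *Msln* at 11.2 to 73.6 CPM and *Gpm6a* at 2.7 to 6.23 CPM. *Upk3b*, below the filter, was at 0.168 CPM or less. The part of any of these cells, or of hypoxia, in the values of the members was not tested.

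The genes with the most similar profiles were found by the root mean square difference of mean-centred log2 CPM over the 8 libraries, given here as a description. They were chosen for this likeness, so high and low libraries shared with a member follow from the choice. Whether they share a cell type with the member was not tested. For *Igfbp3* these were *Cd82* (0.11), *Ap5b1* (0.13) and *Map3k1* (0.15). *Cd82*, which encodes a tetraspanin, ran at 156, 152, 87.6 and 206 CPM in controls 1 through 4 and at 264, 292, 118 and 357 CPM in mutants 1 through 4, with the same order of mutants as *Igfbp3*. For *Igfbp5* they were *Steap1* (0.24), *Tenm4* (0.29) and *Kcnj8* (0.30), each with its lowest values in controls 2 and 3. *Kcnj8*, a potassium channel gene of pericytes, had 1.13 and 1.03 CPM there, 7.58 and 11.7 CPM in controls 1 and 4 and 10.2 to 19.1 CPM in the mutants. For *Igfbp7* they were *Eef1b2* (0.07), *Rpl37a* (0.09) and *Rps3a1* (0.09), 3 genes of the translation machinery, highest in control 3 and mutant 3 as *Igfbp7* was. The nearest profiles were *Arhgap4* (0.22), *Scoc* (0.23) and *Cav1* (0.25) for *Igfbp4*, *Esr1* (0.29), *P2ry10* (0.34) and *Rpl11* (0.35) for *Igfbp6*, and *Fbn2* (0.36), *9130008F23Rik* (0.39) and *Grm4* (0.41) for *Igfbp2*.

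Of 49 other genes of the IGF axis that were listed by role, 46 were tested and none was called by edgeR. At an unadjusted p below 0.05, 7 were higher and 4 were lower (all genes: 6.8% and 7.19%), and DESeq2 called 3 higher and 1 lower (all genes, either direction: 1.23%). The 4 lower genes include *Itgb1*, the deleted gene, whose fall was set by the design. The median log2 fold change of the 46 was 0.15.

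The ligands and the acid-labile subunit (*Igf1*, *Igf2* and *Igfals*) each had a higher mean in the mutants and none an unadjusted p below 0.05. *Igf2* had the smallest p. It was at 7.06, 11.9, 15.7 and 7.94 CPM in controls 1 through 4 and at 12.6, 15.2, 7.81 and 21.8 CPM in mutants 1 through 4, with overlap and a log2 fold change of 0.43 (SE 0.35, adjusted p = 0.563 in edgeR). It ran opposite ways in the depth classes, at 1.13 in the libraries under 50 M and -0.79 in those over. Of the 4 receptors, *Insrr*, the insulin receptor-related receptor of islets, was lower, at 185, 436, 436 and 194 CPM in controls 1 through 4 and 114, 118, 258 and 105 CPM in mutants 1 through 4. Its groups overlapped through mutant 3, but within each depth class every mutant was below every control. The log2 fold change was -1.07 (SE 0.40, adjusted p = 0.333 in edgeR) and, with the depth class as a term, -0.76 (SE 0.07, adjusted p = 0.0333).

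Among the genes whose products cut IGF binding proteins, *Pappa2*, the protease that cuts the products of *Igfbp3* and *Igfbp5*, was lower in the mutants. It stood at 417, 865, 1431 and 310.4 CPM in controls 1 through 4 and at 179, 286, 162 and 192 CPM in mutants 1 through 4, so every mutant was below every control, which 579 genes (3.8%) were. The 2 controls with the least *Igfbp5* mRNA had the most *Pappa2* mRNA, and also the highest sums of endocrine and acinar markers. A link between the 2 genes was not tested, and cutting acts on protein, which was not measured here. Its log2 fold change came to -1.88 (SE 0.46), with an adjusted p of 0.316 in edgeR and 0.00376 in DESeq2, and it was -0.74 (SE 0.23) within the libraries under 50 M. *Stc2*, which encodes an inhibitor of pappalysins, was at 0.724 to 3.41 CPM in the controls and 3.69 to 8.42 CPM in the mutants, with a log2 fold change of 1.5 (SE 0.45, adjusted p = 0.333 in edgeR). The other 4 tested genes of this list had a higher mean in the mutants and did not pass an unadjusted p of 0.05.

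Of 11 tested relatives that carry an IGF binding protein domain, 5 had a higher and 6 a lower mean, and the 3 at an unadjusted p below 0.05 were all higher and all called by DESeq2. *Htra1*, a secreted serine protease, was at 5.97, 3.86, 4.2 and 3.89 CPM in controls 1 through 4 and 9.99, 7.99, 11 and 10.2 CPM in mutants 1 through 4, with no overlap. Its log2 fold change came to 1.13 (SE 0.20), with an adjusted p of 0.219 in edgeR and 6.35e-05 in DESeq2. *Wisp1* and *Wisp2*, matricellular genes of the CCN family, had log2 fold changes of 2.15 (SE 0.61, adjusted p = 0.333) and 3.02 (SE 0.58, adjusted p = 0.233) in edgeR. Their adjusted p was 0.0209 and 0.000619 in DESeq2, and mutant 3 was the highest library for both, at 31.5 and 2.7 CPM. *Wisp2* had few reads, with 9, 5, 11 and 8 in controls 1 through 4 and 23, 62, 183 and 44 in mutants 1 through 4. Without mutant 3, *Wisp1* was at 1.56 and *Wisp2* at 2.49, and they were at 0.90 and 2.24 within the libraries under 50 M and at 4.36 and 4.17 within those over 50 M.

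Of 8 genes for binding partners of these proteins, *Lrp1*, a receptor for the product of *Igfbp3*, and *Itga5*, the α subunit that pairs with integrin β1, were higher at an unadjusted p below 0.05. *Lrp1* was at 77.6 to 189 CPM in the controls and 252 to 325 CPM in the mutants, with a log2 fold change of 0.98 (SE 0.25, adjusted p = 0.333 in edgeR). *Itga5* was at 46.3, 13, 7.87 and 38.03 CPM in controls 1 through 4 and 50.9 to 73.7 CPM in the mutants, so its lowest values were again those of controls 2 and 3. On the log2 scale the mutants were 1.28 above the controls (SE 0.50, adjusted p = 0.339 in edgeR), and 0.63 above them within the libraries under 50 M. *Itgb1*, the deleted gene, was the only lower one, with a log2 fold change of -0.75 (SE 0.15, adjusted p = 0.233 in edgeR). Of 14 genes of signalling below the receptors, 8 had a higher and 6 a lower mean, and 2 had an unadjusted p below 0.05. These were the adaptor gene *Shc1*, at 101 to 216 CPM in the controls and 243 to 323 CPM in the mutants, and *Foxo1*, a transcription factor that insulin signalling keeps out of the nucleus, at 108 to 154 CPM and 102 to 107 CPM. *Shc1* had a log2 fold change of 0.76 (SE 0.24, adjusted p = 0.333 in edgeR), and 0.29 within the libraries under 50 M. *Foxo1* was at -0.28 (SE 0.12, unadjusted p = 0.0495, adjusted p = 0.356 in edgeR), and its unadjusted p rose above 0.05 with the depth class as a term (0.072), by the likelihood ratio test (0.107), with total counts only (0.339), without the filter (0.0605) and with the replicate block (0.0562).

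**Figure D4:**
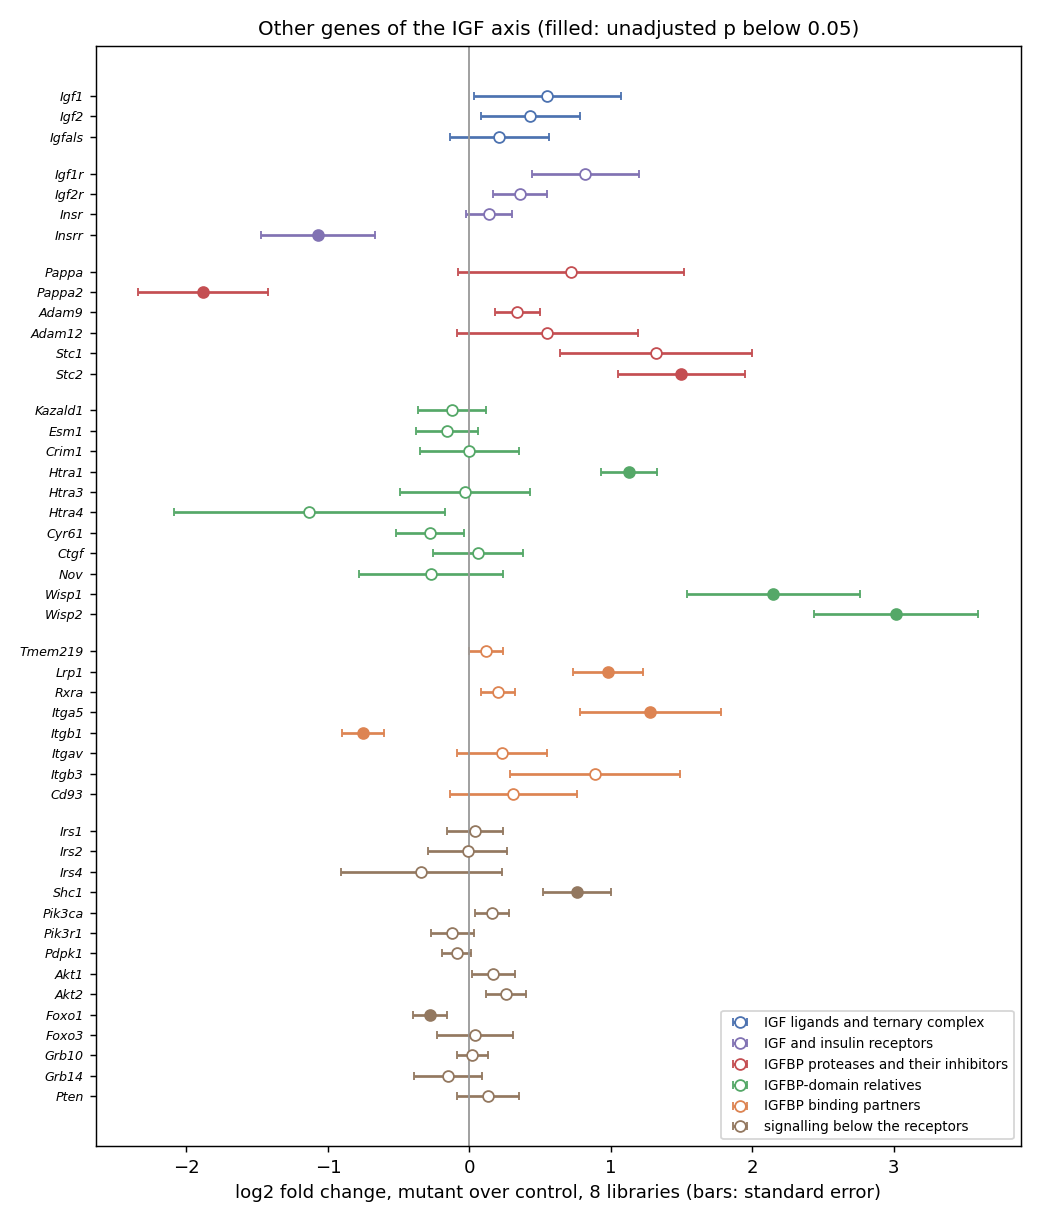
Log2 fold change, mutant over control, of the 46 tested genes of the IGF axis (x axis, bars are standard errors, 8 libraries), grouped and coloured by role, with filled circles at an unadjusted p below 0.05. *Pappa2* lies at -1.88 and *Wisp2*, with 5 to 11 reads in each control, at 3.02. Most genes of signalling below the receptors lie near 0.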

How the data were processed

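RNA from islets of 4 control and 4 *Itgb1* mutant samples was sequenced in 8 libraries. The authors deposited raw counts per gene. Per the study's methods, adapters and poly(A) tails had been removed (Trimmomatic, FASTP), reads mapped to mm10 by STAR, and counts made by featureCounts at default settings. The build GRCm38 and the tools STAR, featureCounts and edgeR are also listed, without versions, in the submitters' processing notes. A deposited table of the authors' own comparison (CPM per library, fold changes, p-values) was not used.

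Counts were scaled by TMM and fitted with edgeR 4.0.16 (quasi-likelihood test, R 4.3.3), over all 15233 of 24091 genes that passed edgeR's low count filter, with genotype as the only term. The study's batch term was not used because the labels name no batch. The SE is the size of the log2 fold change divided by the square root of F. DESeq2 1.42.0, the likelihood ratio test, other scalings and filters, the replicate number as a block, the depth class and each library left out were alternatives, and edgeR's older quasi-likelihood form and the interaction were added after seeing the data. The fits were tested on simulated data.

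The members and gene lists were chosen with earlier results of these data known. Genes named are the members, *Itgb1*, the genes of each IGF axis list at an unadjusted p below 0.05 or else its smallest p, and the 3 nearest profiles of each member (log2 CPM, prior count 2). Marker genes are named where a value needs them. Gene symbols turned into dates (26) were left as they are. Any 2 libraries differed by a chi-square of at least 22.8 per gene, so none was a duplicate.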

Additional observations from a re-analysis of the deposited data

Results flagged for a closer look

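*Igfbp6* in control 1, at 3.04 CPM, stood far from the other 3 controls by Dixon's test for a single outlying value (gap over range 0.881). *Igfbp7* in mutant 3, at 214 CPM, did so among the mutants (0.831). The controls of *Igfbp1* also passed the limit (gap over range 1), with 1 read in control 2 and 0 in the others, too few to list. Chance flags about 1 in 20 groups, and 14 groups of 4 were examined.

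The genotype difference of *Igfbp5* was larger over 50 M counts than under by 3.28 on the log2 scale (interaction in edgeR). That term was added after the pattern had been seen, so it restates the observation that prompted it. The deeper class holds 1 mutant library, mutant 3, so no spread among deep mutants enters the value and no p-value is given. The share of all genes with a difference of this size is not given here.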

How the results depend on the processing

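None of the members was called in any of the fits, and the smallest adjusted p of a member over 113 alternative values was 0.112, for *Igfbp3* within the libraries under 50 M. Of these values 106 kept the direction found over the 8 libraries. *Igfbp6* turned to -1.06 within the 3 libraries over 50 M. *Igfbp7* turned to 0.08 with total counts only, 0.07 with the depth class as a term, 0.06 within the libraries under 50 M, 0.09 within those over and 0.15 without control 3, and ranged from -0.36 (without mutant 3) to that value with each library left out. Among the axis genes *Igf2* turned to -0.79 within the libraries over 50 M. Scaling by total counts alone shifted the median of all genes to 0.15, so the value of *Igfbp7* there is lower than that median. *Igfbp1* had a fitted log2 fold change of 1.55 with no low count filter, which depends on the prior count.

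Genes called higher numbered 0 in edgeR, 111 with DESeq2, 62 with the likelihood ratio test, 3 with the depth term and 7 within the libraries under 50 M, and genes called lower 0, 76, 29, 0 and 3. Unadjusted p-values below 0.05 and higher numbered 1960 within the libraries under 50 M, and lower 1670 there and 542 with total counts only. Leaving out each library gave 580 to 1384 higher and 601 to 1580 lower. Members at that level and higher numbered 1 over the 8 libraries, 2 with the depth term, 2 within the libraries under 50 M and 0 to 2 with each library left out. Of the axis genes, DESeq2 called 3 higher and 1 lower and the likelihood ratio test 2 and 1. At an unadjusted p below 0.05 there were 15 higher within the libraries under 50 M, 11 within those over, and 6 to 10 higher and 2 to 4 lower with each library left out.

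The replicate numbers were not taken to pair the libraries, since the labels do not say that they do. Deviations from the group means correlated at 0.42, -0.01, 0.46 and 0.25 between same-numbered libraries. Between libraries of different number they correlated at -0.37 to 0.23. The deviations cancel within each group, so positive values for some pairs bring negative values for others. With the replicate block, 1600 genes were higher at an unadjusted p below 0.05 and none was called. At that level 3 members (*Igfbp2*, *Igfbp3* and *Igfbp5*) and 11 axis genes were higher. The unadjusted p of these members was 0.00428, 0.00242 and 0.0496 in edgeR, and the adjusted p 0.141, 0.124 and 0.273. Controls and mutants 1, 3 and 4 correlated best with their own number, control 2 with mutant 4 (0.18) and mutant 2 with control 4 (0.21). The libraries numbered 1, 3 and 4 were also of the same depth class in both groups, and those numbered 2 were not. Depth class and pairing therefore cannot be told apart in these values. Whether same-numbered libraries share a source was not tested. Counts of 3 to 72 reads limit *Igfbp2* and 5 reads in all limit *Igfbp1*. The 3 libraries over 50 M test nothing of the mutants beyond 1 library.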
